A study of Danio rerio with 20 samples.

Results

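Myc family genes encode basic helix-loop-helix leucine zipper transcription factors that drive growth and proliferation. The 5 genes described here are mycn, mych, mycla, myca and mycb of the zebrafish, out of 32520 Ensembl genes in the count table. They were chosen by name, with earlier results of these libraries known, so their levels and differences are a description and carry no test. All 5 passed the filter on low counts, as did 13838 genes in all. The gene lists tested further on were also chosen with earlier results of these data known, which limits what their adjusted p-values can show.

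RNA-seq libraries were made from cells sorted by flow cytometry from dissociated zebrafish retinas 42 hours after fertilization. There were 5 libraries for each of 4 populations, 500 sorted cells went into each, and every replicate pooled 25 retinas. Every embryo carried 3 membrane reporters: Tg(ath5:gap-RFP), driven by regulatory sequence of ath5 (now atoh7), Tg(crx:gap-CFP), and Tg(ptf1a:gal4,UAS:gap-YFP). Photoreceptors were positive for the ath5 and crx reporters and negative for ptf1a. Retinal ganglion cells, written RGCs here, were positive for ath5 alone. Amacrine and horizontal cells, written AC/HCs and sorted as 1 population, were positive for ath5 and ptf1a and negative for crx. Progenitors were defined by the absence of all 3 reporters, so any cell of the dissociated tissue without a reporter could enter that gate. The labels do not say whether the replicates came from separate clutches or days, so p-values measure only the spread between these libraries.

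Myc proteins bind DNA as dimers with Max, whereas Mxd and Mnt proteins compete for Max and repress shared targets. In vertebrates Myc raises ribosome production, nucleotide synthesis and entry into S phase. MYCN is known as the family member of proliferating neural progenitors, MYC is broadly used in dividing cells, and MYCL is the least studied of the mammalian members. Teleosts kept duplicates of several of these genes.

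The libraries held 21176600 to 30849559 counts, of which 3.93% to 15.9% were mitochondrial. AC/HC replicate 1 and replicate 3 detected the fewest genes, 12531 and 12929, and replicate 1 also had the lowest scaling factor, 0.68. Some results that rest on them are also given without them. The make-up shares and most values of single list genes in AC/HCs are given only with both. Of the 20 libraries, AC/HC replicate 1 had the highest sum of myeloid markers, 263 CPM, and of ganglion cell markers, 5622 CPM. The part of such cells in its Myc values was not tested. The photoreceptor markers crx and neurod1 were highest in photoreceptors. Among later photoreceptor genes, gngt2a and rcvrna were also highest there, averaging 141 and 71.5 CPM. In photoreceptors gnat2, gngt2b, pde6c and guca1d averaged below 1 CPM, and arr3a and pde6ha were at 0 counts. arr3a was at 0 counts in the other populations as well. The ganglion cell list, 13 matched genes, summed to 2024 ± 769 CPM in RGCs and 3476 ± 1230 CPM in AC/HCs (SD, n = 5 each), and ptf1a itself averaged 183 CPM in RGCs and 200 CPM in AC/HCs. These 2 populations were thus not set apart by the ganglion cell markers, although tfap2a, a factor of AC/HC neurons, averaged 13.9 CPM in RGCs and 615 CPM in AC/HCs. The list of 15 retinal progenitor genes, led by fabp7a, summed to 27015 CPM in photoreceptors, 15884 CPM in RGCs, 16225 CPM in AC/HCs and 14630 CPM in progenitors, so its sum did not mark the last population. Of its 15 genes, 9 had their highest mean in progenitors, 2 in photoreceptors, 1 in RGCs and 3 in AC/HCs. notch1a, a Notch receptor gene and among the 9, averaged 58.8 CPM in photoreceptors, 138 CPM in RGCs and 107 CPM in AC/HCs, below the 206 CPM of progenitors, and was chosen after its values were seen. The proliferation genes pcna, mki67 and mcm5, also among the 9, averaged 2923, 434 and 366 CPM in photoreceptors. They averaged 1483, 450 and 272 CPM in RGCs, 915, 314 and 171 CPM in AC/HCs, and 3048, 540 and 604 CPM in progenitors. The word neurons here names the reporter-positive populations and does not state that their cells had stopped dividing.

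The 5 genes lie on separate chromosomes of GRCz11, and none overlaps another annotated gene. mycn (ENSDARG00000006837) spans chr20:33294428-33299384 on the plus strand and mych (ENSDARG00000077473) spans chr6:50451337-50454833 on the plus strand. mycla (ENSDARG00000006003) spans chr13:35904335-35908275 on the minus strand. myca (ENSDARG00000045695) spans chr24:10413484-10416284 and mycb (ENSDARG00000007241) spans chr2:32016256-32018371, both on the plus strand. The name table gives both of these last genes the human-style name MYC, and RefSeq lists c-myc as a synonym of myca. Their reads were counted only where they mapped to a single place, so any stretch identical between the paralogs would be left out of both. Exon length ranged from 1822 bases in mycb to 2496 bases in mych, and levels were compared between genes only per kb of exon.

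mycn, the neural progenitor member, stood highest in progenitors. Its level was 21.4, 3.10, 5.502, 5.54 and 7.28 CPM (counts per 1000000 of the scaled library total) in photoreceptor replicates 1 to 5. RGC libraries held 30.9, 22.4, 43.8, 17.02 and 34.3 CPM. In AC/HCs it was 0.334, 41.1, 40.1, 51.8 and 140.1 CPM, and in progenitors it was 242, 255, 345, 232 and 220.0 CPM. Every progenitor library lay above every neuron library, and the gap between the lowest progenitor library and AC/HC replicate 5 was the narrowest. Among the neurons the 3 populations overlapped, with photoreceptors lowest on average.

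The averages were 8.56 ± 7.32 CPM in photoreceptors, 29.7 ± 10.5 CPM in RGCs, 54.7 ± 51.6 CPM in AC/HCs and 259 ± 50.0 CPM in progenitors (SD, n = 5 each). The fitted log2 difference of photoreceptors over progenitors was -4.92 (SE 0.84), about 30.3 times lower. Those of RGCs and of AC/HCs over progenitors were -3.12 (SE 0.77) and -2.24 (SE 0.74). All 3 comparisons share the progenitor libraries. Photoreceptor replicate 1 was the highest of its population, and without it photoreceptors averaged 5.35 ± 1.72 CPM and the log2 difference was -5.60. AC/HC replicate 1 held 7 mycn counts, and the other 4 libraries averaged 68.3 ± 48.2 CPM, with a log2 difference from progenitors of -1.92. Leaving out replicates 1 and 3 together gave -1.75.

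mych, a member found in fish, was also highest in progenitors on average, at a much lower level than mycn. It was 27.0, 3.93, 5.502, 5.81 and 10.8 CPM in photoreceptors and 18.6, 8.87, 8.08, 3.29 and 9.53 CPM in RGCs. In AC/HCs it was 11.9, 12.7 and 11.5 CPM in replicates 2, 4 and 5 and had 0 counts in replicates 1 and 3, the 2 libraries with the fewest genes. In progenitors it was 34.9, 65.6, 34.3, 23.1 and 60.4 CPM. The progenitor libraries lay above all RGC and all AC/HC libraries, but photoreceptor replicate 1 exceeded progenitor replicate 4.

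mych averaged 10.6 ± 9.52 CPM in photoreceptors, 9.68 ± 5.58 CPM in RGCs, 7.21 ± 6.60 CPM in AC/HCs and 43.6 ± 18.3 CPM in progenitors (SD, n = 5 each). The log2 differences from progenitors were -2.04 (SE 1.099) in photoreceptors, -2.17 (SE 1.104) in RGCs and -2.60 (SE 1.12) in AC/HCs. Without photoreceptor replicate 1 the first became -2.75, and without AC/HC replicates 1 and 3 the last became -1.87. Under limma voom, with both libraries at 0 counts included, it was -5.37. The 3 neuron populations overlapped one another, and the SE exceeded the size of each edgeR difference among them. limma voom gave 2.91 for photoreceptors over AC/HCs and 3.09 for RGCs over AC/HCs, against 0.56 and 0.42 by edgeR, and without AC/HC replicates 1 and 3 edgeR gave -0.19 and -0.31.

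Several lists of markers for cells other than retinal progenitors were measured in the reporter-negative gate. The mesenchyme, endothelium and blood, and pigment epithelium lists averaged highest there, as mycn and mych did. The summed level of 18 mesenchyme genes was 0.6 to 8.42 CPM in photoreceptors, 2.24 to 7.997 CPM in RGCs and 0.888 to 3.72 CPM in AC/HCs, against 191 to 365 CPM in progenitors, where 17 of them averaged at least 1 CPM. twist1a and prrx1b were at 0 counts in all 3 neuron populations. The 7 matched endothelium and blood genes were led by the globin gene hbae3. They summed to 0.199 to 2.33 CPM in photoreceptors, 0 to 3.61 CPM in RGCs and 0.129 to 628 CPM in AC/HCs. In progenitor replicates 1 to 5 they summed to 831, 1559, 16.8, 0.043 and 2836 CPM. AC/HC replicate 1 alone gave the 628 CPM, and every other AC/HC library was at or below 0.482 CPM. The 10 pigment epithelium genes summed to 1.54 to 12.1 CPM in photoreceptors, 2.75 to 82.7 CPM in RGCs and 0.859 to 22.6 CPM in AC/HCs, against 74.3, 484, 29.7, 7.02 and 13.8 CPM in progenitor replicates 1 to 5, where rpe65a was at 0 counts. In progenitor replicate 4, which had the lowest sum on all 3 lists, mycn was 232 CPM and mych 23.1 CPM. That library still held 191 CPM on the mesenchyme list, so it does not show the level of either gene without such cells. Across the progenitor libraries, mych and the endothelium and blood sum were both lowest in replicate 4 and both highest in replicates 2 and 5. There mych was 65.6 and 60.4 CPM, while mycn was highest in replicate 3, at 345 CPM. The part of mesenchyme, blood and pigment cells in the mycn and mych results was not tested, and every progenitor library held mesenchyme markers. In such pooled material, a smaller share of cells with a transcript and less of it per cell cannot be told apart.

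**Figure D1:**
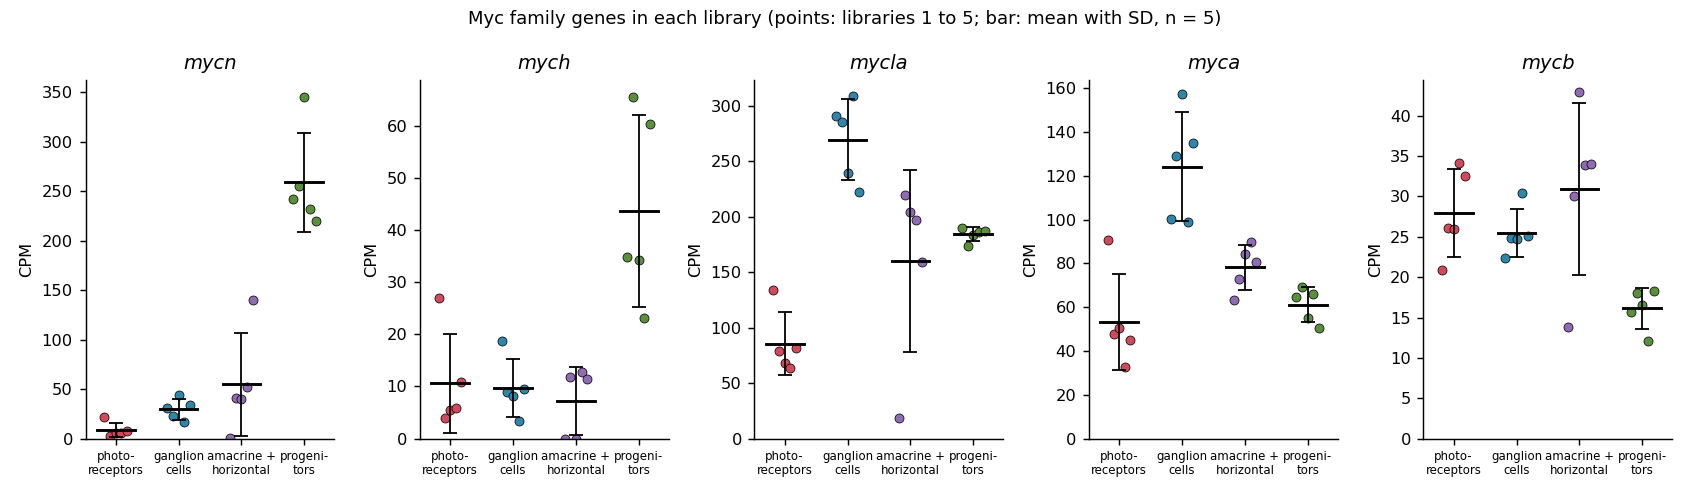
CPM of the 5 Myc family genes (vertical axes, linear, each gene on its own scale from 0) in photoreceptors, RGCs, AC/HCs, and progenitors. Points are the 5 libraries of a population in replicate order, and bars are the mean with its SD; the progenitor libraries stand above all others for mycn, at 220.0 to 345 CPM, and below all photoreceptor and RGC libraries for mycb, at 12.1 to 18.3 CPM.

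mycla, a zebrafish counterpart of MYCL, was on average highest in RGCs and lowest in photoreceptors. Its level was 134, 78.8, 68.5, 63.9 and 81.7 CPM in photoreceptors and 291, 285, 240.1, 309 and 223 CPM in RGCs. In AC/HCs it was 18.8, 219.8, 205, 198 and 159.6 CPM, and in progenitors it was 189.8, 174, 184, 187 and 187 CPM. Progenitors were the most uniform of all member and population pairs, with a highest library only 1.09 times the lowest. Every photoreceptor library lay below every progenitor library, and every RGC library lay above every library of the other populations.

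On average mycla stood at 85.5 ± 28.3 CPM in photoreceptors, 269.7 ± 36.7 CPM in RGCs, 160.1 ± 82.0 CPM in AC/HCs and 184 ± 6.24 CPM in progenitors (SD, n = 5 each). The log2 difference was -1.11 (SE 0.38) for photoreceptors over progenitors and 0.55 (SE 0.38) for RGCs over progenitors. The libraries of RGCs and progenitors did not overlap, although that estimate, 0.55, is not large against its SE of 0.38. For AC/HCs over progenitors it was -0.20 (SE 0.38), with overlapping libraries. Between neurons it was -1.66 (SE 0.39) for photoreceptors over RGCs and 0.75 (SE 0.38) for RGCs over AC/HCs. Leaving out 1 library gave 0.47 to 0.90 for RGCs over AC/HCs. AC/HC replicate 1 lay far below the others. Without it that population averaged 195 ± 25.6 CPM, and its log2 difference over progenitors became 0.09, of the opposite sign. Without AC/HC replicates 1 and 3 it was 0.05.

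myca was also highest in RGCs. Its level was 90.6, 47.6, 50.6, 32.8 and 44.9 CPM in photoreceptors and 100.2, 129, 158, 98.7 and 135 CPM in RGCs. It was 63.3, 72.7, 84.4, 89.6 and 80.5 CPM in AC/HCs and 64.8, 69.2, 54.9, 66.0 and 50.5 CPM in progenitors. The lowest RGC library, at 98.7 CPM, lay above every library of the other 3 populations, which overlapped among themselves.

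Mean myca was 53.3 ± 21.9 CPM in photoreceptors, 124 ± 24.9 CPM in RGCs, 78.1 ± 10.3 CPM in AC/HCs and 61.1 ± 7.97 CPM in progenitors (SD, n = 5 each). RGCs over progenitors gave a log2 difference of 1.02 (SE 0.24), or 2.03-fold. The estimates were -0.20 (SE 0.24) for photoreceptors and 0.36 (SE 0.24) for AC/HCs over progenitors. Photoreceptors over RGCs gave -1.22 (SE 0.25), and RGCs over AC/HCs gave 0.67 (SE 0.24). Without photoreceptor replicate 1, which was the highest of its population, photoreceptors averaged 44.0 ± 7.80 CPM and their estimate over progenitors was -0.47.

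mycb, the second counterpart of MYC, was lowest in progenitors. It was 20.8, 26.1, 25.9, 34.2 and 32.5 CPM in photoreceptors and 22.3, 24.9, 24.7, 30.5 and 25.1 CPM in RGCs. It was 13.9, 30.0, 42.9, 34.0 and 34.0 CPM in AC/HCs and 15.6, 18.02, 16.6, 12.1 and 18.3 CPM in progenitors. All photoreceptor and RGC libraries lay above all progenitor libraries, and so did all AC/HC libraries except replicate 1. The 3 neuron populations overlapped one another.

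The means of mycb were 27.9 ± 5.43 CPM in photoreceptors, 25.5 ± 2.998 CPM in RGCs, 30.9 ± 10.6 CPM in AC/HCs and 16.1 ± 2.53 CPM in progenitors (SD, n = 5 each). The log2 differences from progenitors were 0.79 (SE 0.34) in photoreceptors, 0.66 (SE 0.34) in RGCs and 0.94 (SE 0.35) in AC/HCs. Without AC/HC replicate 1 the last became 1.13. Differences among the neuron populations were between -0.28 and 0.13, each smaller than its SE of 0.34.

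**Figure D2:**
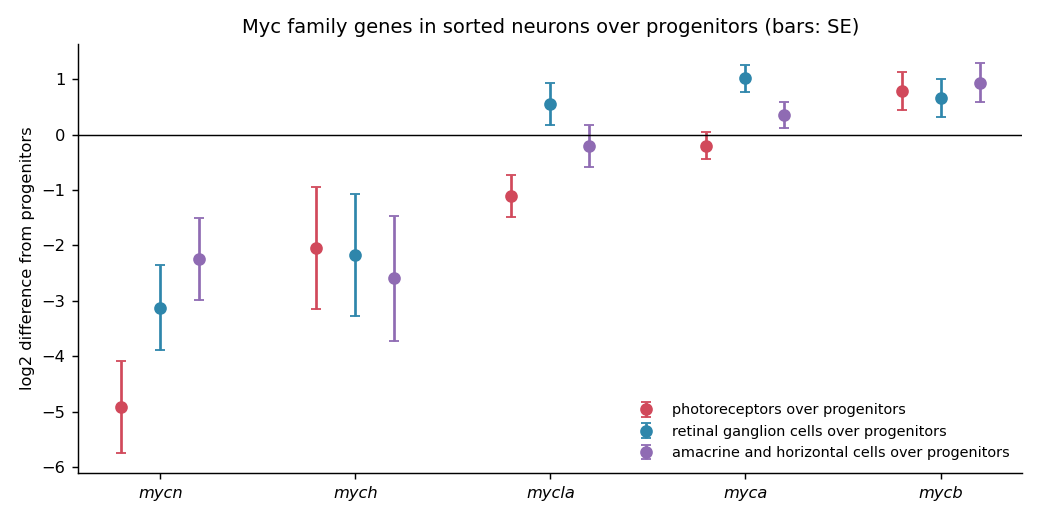
Fitted log2 difference of photoreceptors, RGCs, and AC/HCs over progenitors (vertical axis) for the 5 Myc family genes, with bars of 1 SE. mycn and mych lie below 0 in all 3 populations, mycb lies above 0 in all 3, and mycla is at -1.11 in photoreceptors and 0.55 in RGCs.

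Counting members whose libraries did not overlap between 2 populations gave the following. For photoreceptors over progenitors there were 3 of 5, 1 higher and 2 lower, where 11.0% of the genes tested did not overlap. For RGCs over progenitors there were 5 of 5, 3 higher and 2 lower, beside 8.87% of the genes tested. For AC/HCs over progenitors there were 2 of 5, both lower, beside 9.64%. Photoreceptors over RGCs gave 2 of 5, both lower, beside 8.84%, and photoreceptors over AC/HCs gave 0 of 5, beside 9.76%. RGCs over AC/HCs gave 2 of 5, both higher, beside 3.97%. Since the genes were chosen with these results known, nothing is read from those shares.

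The libraries carry track numbers in 2 separate ranges, whose meaning the labels do not give. Within the lower range, mycn averaged 12.2 CPM in 2 photoreceptor, 26.6 CPM in 2 RGC, 0.334 CPM in 1 AC/HC, and 249 CPM in 2 progenitor libraries. Within the upper range it averaged 6.11 CPM in 3 photoreceptor, 31.7 CPM in 3 RGC, 68.3 CPM in 4 AC/HC, and 266 CPM in 3 progenitor libraries. For mycla the means within the lower range were 107 CPM in photoreceptors, 288 CPM in RGCs, 18.8 CPM in the single AC/HC library and 182 CPM in progenitors. Within the upper range they were 71.4 CPM in photoreceptors, 257 CPM in RGCs, 195 CPM in AC/HCs and 186 CPM in progenitors. Photoreceptors were thus lowest in the upper range, and that AC/HC library was lowest in the lower range. mych was above every neuron population in progenitors within both ranges, at 50.2 CPM in the lower and 39.3 CPM in the upper. myca was highest in RGCs in both, at 115 and 130.4 CPM. mycb was lowest in progenitors in the upper range, at 15.6 CPM, but in the lower range the single AC/HC library, at 13.9 CPM, was below the progenitor mean of 16.8 CPM.

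Per kb of exon, the sum of the 5 genes was lowest in photoreceptors and its make-up differed between populations. A sixth Myc gene, myclb, described further below, is outside this sum. The 5 genes summed to 87.7 ± 27.5 CPM per kb in photoreceptors, 213 ± 8.81 in RGCs, 153 ± 59.8 in AC/HCs and 244 ± 18.3 in progenitors (SD, n = 5 each). mycn made up 3.54 ± 1.72% of that sum in photoreceptors, 5.62 ± 1.98% in RGCs, 12.04 ± 10.7% in AC/HCs and 42.3 ± 4.98% in progenitors. mycla made up 44.7 ± 2.08% in photoreceptors, 58.2 ± 7.01% in RGCs, 44.1 ± 16.1% in AC/HCs and 34.9 ± 3.20% in progenitors. Among the 5 genes, mycla led in all 5 photoreceptor libraries, all 5 RGC libraries and 4 AC/HC libraries. In photoreceptors, however, myclb averaged 57.2 CPM per kb, above the 39.3 CPM per kb of mycla. mycn led in all 5 progenitor libraries. The exception was AC/HC replicate 1, where myca led with 64.8% of a sum of 46.6 CPM per kb. In that library myclb alone stood at 61.8 CPM per kb.

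myca took 28.5 ± 4.16% in photoreceptors, 27.8 ± 5.62% in RGCs, 30.4 ± 19.3% in AC/HCs and 11.97 ± 1.89% in progenitors. mycb was 19.0 ± 6.86% of the sum in photoreceptors, with means of 6.58% in RGCs and 11.9% in AC/HCs, against 3.62 ± 0.538% in progenitors. mych did not exceed 10.4% in any library. Among the genes tested, the mean CPM per kb of mycn ranked at the 48.9th percentile in photoreceptors and the 94.4th in progenitors, and that of mycla at the 95.4th in RGCs.

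**Figure D3:**
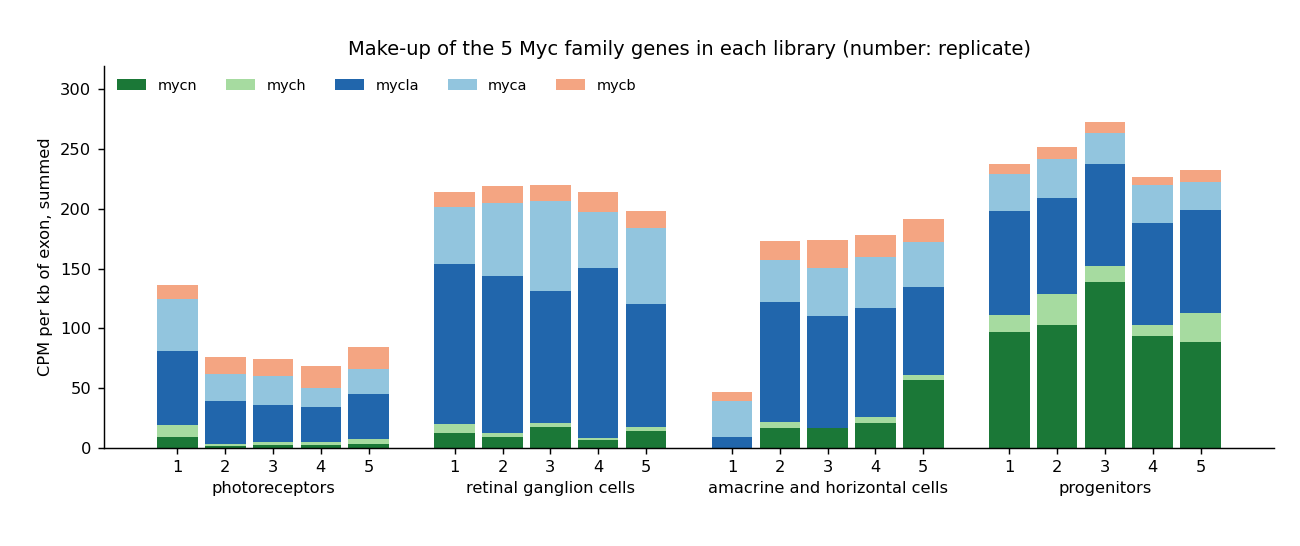
Summed CPM per kb of exon of the 5 Myc family genes (vertical axis) in each of the 20 libraries, stacked by gene, with photoreceptors at the left and progenitors at the right. The mycn segment is the tallest in all 5 progenitor libraries, and AC/HC replicate 1 has the lowest sum, 46.6 CPM per kb.

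Across the 20 libraries, mycn and mych had the highest Pearson r of the 10 member pairs, 0.73, with a Spearman rho of 0.76 on log2(CPM + 1). myca and mycla had an r of 0.61 and the highest rho, 0.78, and mycb and mych had an r of -0.42. These are descriptions over libraries of 4 populations, which share the differences between populations and the depth of each library. The genes whose levels were most like each member's were sought among 8236 genes with a symbol and at least 10 CPM in a population. For mycn they were ARHGDIA, PRPS1L1 and BZW1, each with an r of 0.90. For mych they were GCA (r of 0.94), acsl1b (0.89) and APRT (0.87). For mycla they were cnp (0.90), HS6ST2 (0.89) and GRK4 (0.89), whose ranks by Spearman rho were 97, 95 and 173. APRT ranked 118th by rho for mych, so these likenesses rest on the measure used. For myca they were RNF2 (0.81), cdkn1ca (0.79) and RAB10 (0.79), and for mycb they were si:dkey-12h9.6 (0.88), PDCL (0.88) and rab42a (0.87), the last of which ranked 59th by rho.

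A sixth Myc gene, myclb (ENSDARG00000034956, chr19:30805513-30811161), ran opposite to mycn and was tested with the rest of the Max network. It is the second counterpart of MYCL in this fish. Its level was 299, 121, 152, 169 and 136 CPM in photoreceptors and 173, 122, 169.5, 129.7 and 105 CPM in RGCs. It was 189, 84.8, 83.4, 87.3 and 54.6 CPM in AC/HCs and 35.5, 28.3, 30.98, 20.96 and 18.2 CPM in progenitors. No progenitor library reached any neuron library. myclb rose by a log2 difference of 2.71 (SE 0.33) in photoreceptors over progenitors, with an adjusted p of 1.82e-05 by edgeR's quasi-likelihood test. It rose by 2.38 (SE 0.32, adjusted p = 0.000131) in RGCs and by 1.90 (SE 0.32, adjusted p = 0.00049) in AC/HCs. The call held whichever single library was left out. Per kb of exon it reached 57.2 ± 23.3 CPM in photoreceptors, 45.7 ± 9.86 CPM in RGCs, 32.6 ± 16.9 CPM in AC/HCs and 8.75 ± 2.33 CPM in progenitors (SD, n = 5 each). Added to the 5 genes above, it was 39.0 ± 4.59% of the Myc genes in photoreceptors, against 3.44 ± 0.812% in progenitors.

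Among all genes tested, 3.14% were called higher and 2.05% lower in photoreceptors over progenitors. For RGCs over progenitors the shares were 1.99% and 0.889%, and for AC/HCs over progenitors they were 5.61% and 5.51%. Of 13 Max network genes listed, 12 were matched to the table and 10 were tested. myclb was the only one of them called in photoreceptors or RGCs over progenitors, and myclb and max were called higher in AC/HCs. max, the common dimer partner, averaged 229 ± 46.7 CPM in photoreceptors, 351 ± 69.7 CPM in RGCs, 368 ± 127 CPM in AC/HCs and 228 ± 45.5 CPM in progenitors (SD, n = 5 each). Its log2 difference of 0.69 (SE 0.22) in AC/HCs had an adjusted p of 0.048, and this call was lost in 18 of the 20 fits that left out 1 library. The repressor gene mxi1 averaged 125 ± 24.7 CPM in photoreceptors, 269.8 ± 95.9 CPM in RGCs and 268 ± 90.0 CPM in AC/HCs. Its log2 difference in photoreceptors was -1.11 over RGCs (adjusted p = 0.0388) and -1.10 over AC/HCs (adjusted p = 0.0186). The first of these calls was lost without any one of photoreceptor replicates 2 to 5 or RGC replicates 1, 3, 4 and 5, and the other without photoreceptor replicate 4. mxd3, mxd4, mnta, mntb, mgaa, mlx and mlxip passed no edgeR test in any of the 6 comparisons. For photoreceptors over AC/HCs, the Max network genes with an unadjusted p under 0.05 by edgeR were 2 higher and 3 lower, as were the calls by DESeq2. Of the 7 genes, the repressor gene mxd3 was the most abundant, at 198 ± 36.2 CPM in photoreceptors and 144 ± 26.4 CPM in progenitors, with a log2 difference of 0.46 (SE 0.25) and an adjusted p of 0.393.

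**Figure D4:**
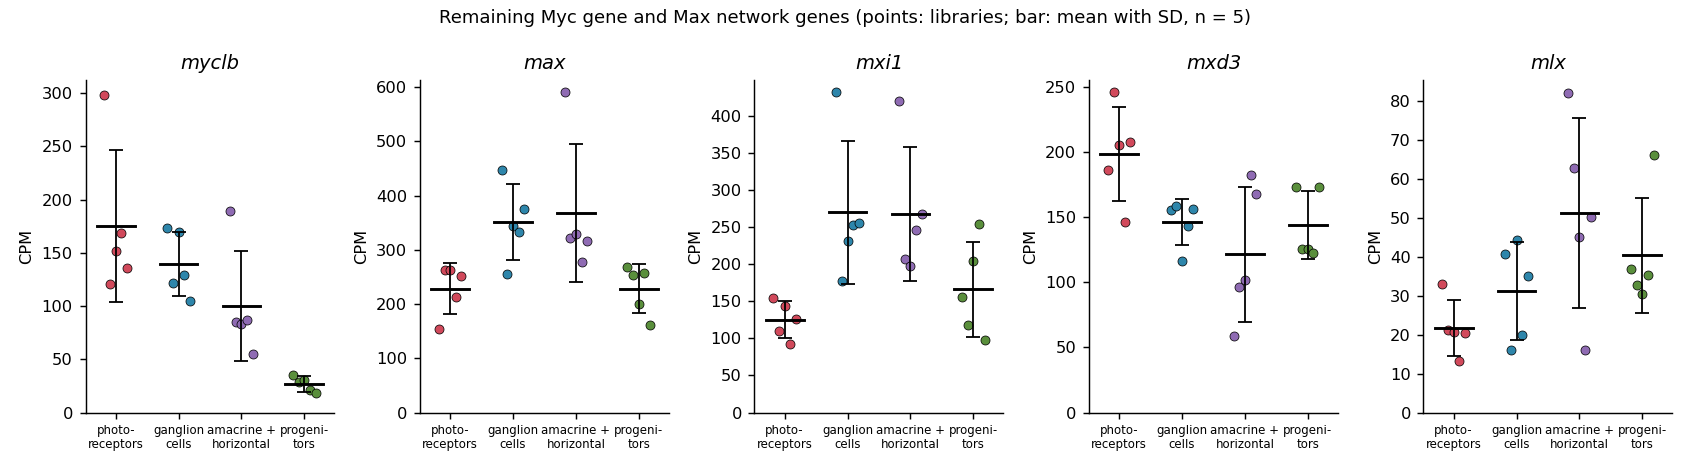
CPM of myclb and 4 of the other Max network genes (vertical axes, linear, each on its own scale from 0) in photoreceptors, RGCs, AC/HCs, and progenitors. Points are libraries and bars the mean with its SD; all progenitor libraries of myclb lie at or below 35.5 CPM and all neuron libraries at or above 54.6 CPM.

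Of 23 Myc cofactors and regulators of Myc stability, all were matched and 21 were tested. edgeR called 0 of them in photoreceptors over progenitors, where 1 had an unadjusted p under 0.05 and DESeq2 and limma voom also called 0. In the other comparisons over progenitors 1 was called higher in RGCs, and 2 higher and 2 lower were called in AC/HCs. kat5b, which encodes the acetyltransferase Tip60, averaged 147 ± 33.9 CPM in RGCs against 75.1 ± 10.7 CPM in progenitors. It rose there by 0.97 (SE 0.22, adjusted p = 0.0181 by edgeR), a call lost without RGC replicate 1 or progenitor replicate 5. It also rose by 0.97 (adjusted p = 0.00749) in AC/HCs. skp2, a ubiquitin ligase subunit known to act on Myc and on p27, averaged 52.9 ± 17.8 CPM in AC/HCs and 167 ± 32.1 CPM in progenitors, a log2 difference of -1.66 (SE 0.25, adjusted p = 0.000174). gsk3ba, a kinase gene, rose by 0.86 in AC/HCs (adjusted p = 0.0474), a call lost in 17 of the 20 fits without 1 library.

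Genes of ribosome biogenesis, a textbook output of Myc, were mostly lower in neurons. Of 52 genes listed, 51 were matched and tested. In photoreceptors over progenitors 8 were called lower and 0 higher, and 47 estimates were below 0, with a median log2 difference of -0.77 against 0.02 over all genes tested. In RGCs 6 were called lower and 0 higher, with a median of -0.62 against 0.03. In AC/HCs 15 were called lower and 0 higher, with a median of -0.84 against 0.00. edgeR's counts at an unadjusted p under 0.05 were 0, 0 and 1 higher in those 3 comparisons, and DESeq2 and limma voom called 0 higher in each. Without AC/HC replicates 1 and 3 the counts called lower were 19, 10 and 17, and without replicate 1 alone they were 17 and 10 in photoreceptors and RGCs. The fit without both also called more genes among all genes in photoreceptors and in RGCs over progenitors. For AC/HCs its count over all genes is not given here. Nothing particular to this list is read from these changes. The 3 counts share the progenitor libraries. The mesenchyme and blood markers described above also averaged highest in progenitors, and their part was not tested. Among the progenitor libraries the endothelium and blood sum ran from 0.043 to 2836 CPM.

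npm1a, which encodes the nucleolar chaperone nucleophosmin, fell in all 3 populations. It averaged 349.8 ± 42.5 CPM in photoreceptors, 312 ± 72.4 CPM in RGCs, 239 ± 72.8 CPM in AC/HCs and 858 ± 201 CPM in progenitors (SD, n = 5 each). Its log2 difference over progenitors was -1.29 in photoreceptors (adjusted p = 0.000583 by edgeR), -1.46 in RGCs (adjusted p = 0.000271) and -1.84 in AC/HCs (adjusted p = 8.35e-06). nop58, a core protein of box C/D small nucleolar RNA particles, fell by 0.99 in photoreceptors (adjusted p = 0.004) and by 1.30 in AC/HCs (adjusted p = 0.000214). In RGCs its estimate was -0.72, with an adjusted p of 0.0517.

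rrs1, a factor of large ribosomal subunit assembly, also differed between neuron populations. It was 94.5, 85.9, 80.4, 62.1 and 74.4 CPM in photoreceptors, against 406, 269.7, 336, 388 and 305 CPM in progenitors, a log2 difference of -2.10 (SE 0.23, adjusted p = 5.93e-06 by edgeR). In RGCs it was 409.6, 253, 389, 326 and 269 CPM, overlapping progenitors (log2 difference -0.05, SE 0.22, adjusted p = 0.994). Photoreceptors over RGCs gave -2.05 (adjusted p = 2.31e-05). In AC/HCs over progenitors it fell by 0.73 (adjusted p = 0.0374), a call lost without AC/HC replicate 2, 4 or 5 or progenitor replicate 1 or 4.

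A second list held genes of growth and metabolism. Of 48 genes, 42 were matched and 40 tested. In photoreceptors over progenitors 5 were called lower and 1 higher, with a median log2 difference of -0.50. In RGCs 6 were called lower and 0 higher, with a median of -0.69, and in AC/HCs 13 were called lower and 0 higher, with a median of -1.03. For RGCs and AC/HCs, edgeR had 0 and 1 gene higher at an unadjusted p under 0.05, and DESeq2 and limma voom called 0. Without AC/HC replicates 1 and 3 the counts called lower were 9, 10 and 12, in a fit that called more of all genes in photoreceptors and RGCs. cad, the enzyme that starts pyrimidine synthesis, averaged 57.5 ± 11.9 CPM in photoreceptors, 41.6 ± 7.65 CPM in RGCs, 35.3 ± 14.6 CPM in AC/HCs and 216 ± 89.4 CPM in progenitors. On the log2 scale it fell by 1.91 in photoreceptors (adjusted p = 0.000832 by edgeR), fell by 2.38 in RGCs (adjusted p = 0.000161) and fell by 2.62 in AC/HCs (adjusted p = 2.68e-05).

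shmt1, a serine hydroxymethyltransferase of the folate cycle, averaged 214 ± 56.8 CPM in photoreceptors and 249 ± 37.1 CPM in progenitors (log2 difference -0.22, adjusted p = 0.883). It fell by 1.53 in RGCs (adjusted p = 0.0122) and by 2.57 in AC/HCs (adjusted p = 4.97e-05), and photoreceptors stood above AC/HCs by 2.35 (adjusted p = 0.000155). atic, which carries out the last steps of purine synthesis, was 0, 0.317, 0, 1.21 and 2.77 CPM in AC/HCs, against 82.1, 86.5, 135, 96.9 and 113 CPM in progenitors. The groups were far apart, with a log2 difference of -6.89 (SE 0.98, adjusted p = 9.21e-05 by edgeR). prps1b, which makes the phosphoribosyl pyrophosphate used in nucleotide synthesis, was the gene called higher in photoreceptors. It averaged 262 ± 33.0 CPM in photoreceptors and 143 ± 20.5 CPM in progenitors, a log2 difference of 0.87 (SE 0.19, adjusted p = 0.00874). PRPS1L1, by its name a related gene, went the other way, at 75.6 ± 20.8 CPM in photoreceptors and 219 ± 30.1 CPM in progenitors. It was named above for its likeness to mycn, so these values are a description. The list entry prps1a matched no gene.

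**Figure D5:**
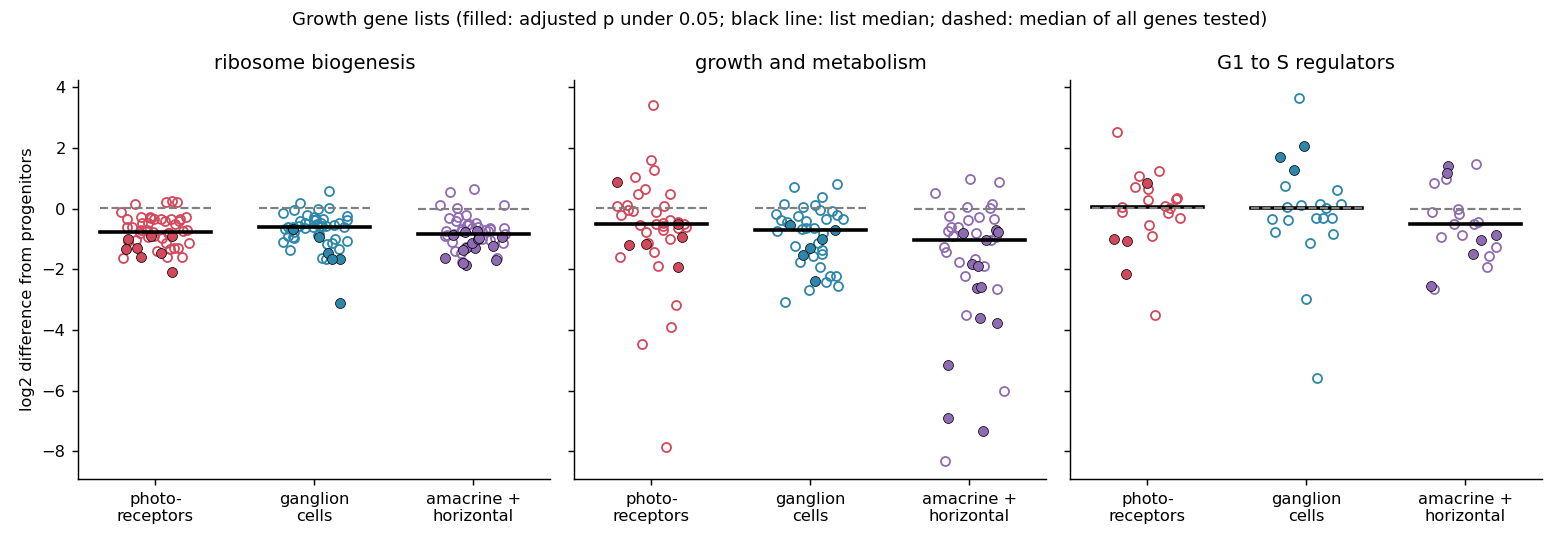
Log2 difference over progenitors (vertical axis) of the tested genes of ribosome biogenesis, of growth and metabolism, and of G1 to S regulation, in photoreceptors, RGCs, and AC/HCs. Filled points passed an adjusted p of 0.05, black lines are list medians and dashed grey lines the medians of all genes; for ribosome biogenesis the black lines lie at -0.77, -0.62 and -0.84.

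Regulators of entry into S phase moved in both directions. Of 25 genes listed, 24 were matched and 21 tested. The list held drivers such as ccnd1 and ccne1 together with inhibitors and growth arrest genes such as cdkn1bb and gadd45ba. A gene called higher or lower can thus be of either kind. In photoreceptors over progenitors 1 was called higher and 3 lower, in RGCs 3 higher and 0 lower, and in AC/HCs 2 higher and 4 lower. For RGCs edgeR had 4 genes lower at an unadjusted p under 0.05, DESeq2 called 1 and limma voom 0. Without AC/HC replicates 1 and 3 edgeR called 2 lower there and 7 lower in AC/HCs. That fit also called more of all genes in RGCs, and its AC/HC count over all genes is not given here. ccnd1, which encodes cyclin D1, was 3176, 2906, 2700.1, 2749 and 2201 CPM in photoreceptors, against 1574, 1408, 1466, 1669 and 1559 CPM in progenitors. It rose there by 0.84 on the log2 scale (adjusted p = 0.00341 by edgeR), fell by 0.88 in AC/HCs (adjusted p = 0.00146), and had an estimate of -0.31 in RGCs (adjusted p = 0.458). Photoreceptors thus had, on average, the lowest summed level of the 5 Myc genes and the highest ccnd1. That sum leaves out myclb, which averaged 57.2 CPM per kb in photoreceptors, 45.7 in RGCs, 32.6 in AC/HCs and 8.75 in progenitors.

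Both genes of this list called higher in AC/HCs, gadd45ba and cdkn1bb, were also called higher in RGCs. gadd45ba, a stress and growth arrest gene, rose by 1.70 in RGCs (adjusted p = 0.00132) and by 1.16 in AC/HCs (adjusted p = 0.0109). In photoreceptors it averaged 25.3 ± 7.26 CPM against 53.0 ± 9.59 CPM in progenitors and fell by 1.07 (adjusted p = 0.0278). That call was lost without any one of photoreceptor replicates 2 to 5 or progenitor replicates 3 to 5. cdkn1bb, a p27 gene, rose by 1.26 in RGCs (adjusted p = 0.0154), a call lost without RGC replicate 1 or progenitor replicate 2 or 5, and by 1.41 in AC/HCs (adjusted p = 0.0028). cdkn1ca, a p57 gene, averaged 649 ± 136 CPM in RGCs and 156 ± 49.3 CPM in progenitors, a log2 difference of 2.06. It was named as 1 of the 3 genes most like myca, itself highest in RGCs. cdkn1ca is also on this list and was tested with it, but because of that choice its difference is given only as a description. ccne1, encoding cyclin E, fell by 2.56 in AC/HCs (adjusted p = 0.00693), and the retinoblastoma gene rb1 fell by 1.51 there (adjusted p = 0.0151).

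Between neuron populations, 4.77% of all genes were called higher and 3.94% lower in photoreceptors over AC/HCs. There 7 of 40 growth and metabolism genes were called, all higher, while 1 of 51 ribosome biogenesis genes was higher and 2 lower. Of 21 regulators of S phase entry, drivers and inhibitors together, 6 were called higher and 1 lower. In photoreceptors over RGCs, where 0.838% of genes were called higher and 1.27% lower, the growth and metabolism list had 2 called, both higher, and the ribosome biogenesis list had rrs1 alone, called lower. The mixed list of S phase regulators had 1 of 21 called higher there, ccnd1, and 3 lower, among them the growth arrest gene gadd45ba. In RGCs over AC/HCs, 0.6% of genes were called higher and 0.224% lower, and the growth and metabolism list had atic alone, called higher.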

How the data were processed

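The authors deposited a table of raw read counts per gene for 20 libraries. Per the file headers, reads were aligned with GSNAP to GRCz11 and counted with featureCounts 1.6.3 over exons of Ensembl release 95, ignoring strand, with a mapping quality of at least 1, and leaving out reads with several places or genes. The same deposited table gives each gene's summed exon length. SmartSeq-2 libraries carry no molecular identifiers, so amplified reads are not independent molecules. All 20 columns matched a labelled sample, and no 2 libraries were identical.

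Members and gene lists were chosen with earlier results of these data known. Genes were filtered with filterByExpr, scaled by TMM and tested with edgeR 4.0.16 (quasi-likelihood, 2-sided) over 13838 genes and all 20 libraries, 1 mean per population, with Benjamini-Hochberg adjustment and a threshold of 0.05. The SE was taken from the estimate and its F statistic. CPM uses TMM-scaled totals. Spike-in rows, 92, were left out. Named were the 5 members, every tested Max network gene, up to 3 genes per list and direction with the lowest adjusted p and at least 10 CPM, the 3 genes most correlated with each member, and markers. cdkn1ca is named as such a correlated gene. Symbols were matched through a name table and RefSeq chromosomes (GRCz12tu); symbols in capitals are that table's human-style names.

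Alternatives were DESeq2 1.42.0, DESeq2 size factors, limma 3.58.1 voom, totals without mitochondrial genes, no filter, 2 populations only, a replicate block, the track range as covariate, and each library left out. The fit was tested on simulated counts. Some genes are not reported here.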

Additional observations from a re-analysis of the deposited data

Results flagged for a closer look

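Photoreceptor replicate 1 stood far above the other photoreceptor libraries for 2 of the 5 Myc family genes. It had 134 CPM of mycla, where the others had 63.9 to 81.7 CPM, and 21.4 CPM of mycn, where the others had 3.10 to 7.28 CPM. For mych it was also the highest, at 27.0 CPM against 3.93 to 10.8 CPM, and for myca, at 90.6 CPM against 32.8 to 50.6 CPM. Both of these gaps fell just short of the limit given below. For mycb it was the lowest photoreceptor library, at 20.8 CPM. The same library held the highest summed level of the ganglion cell markers among photoreceptors, 994 CPM, against 73.3 to 398 CPM in the other 4, and the part of that in the Myc values was not tested. Progenitor replicate 3 had 345 CPM of mycn and stood apart from the other progenitor libraries at 220.0 to 255 CPM. A library counted as far when its gap to the nearest exceeded 0.71 of the range of its 5 libraries. Chance gives such a library in about 1 of 20 groups of this kind, and 20 groups of a gene and a population were examined.

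mycla differed from progenitors in opposite directions in 2 neuron populations. Its log2 difference over progenitors was -1.11 in photoreceptors and 0.55 in RGCs, and in each case every library lay on 1 side of the progenitor libraries. The difference between the 2 effects is that of photoreceptors over RGCs, -1.66 (SE 0.39), given as a description without a test. Both effects share the progenitor libraries.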

How the results depend on the processing

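Of the members' log2 differences over progenitors, that of mycla in AC/HCs changed sign, from -0.20 to 0.09 without AC/HC replicate 1 and 0.05 without replicates 1 and 3, and the others kept their sign under every alternative run. Among neurons, mych changed sign in all 3 comparisons under at least 1 alternative, and mycn in RGCs over AC/HCs was 0.24 under limma voom, against -0.88. Under limma voom, mych had a log2 difference of -5.37 in AC/HCs over progenitors, 2.91 in photoreceptors over AC/HCs and 3.09 in RGCs over AC/HCs, against -2.60, 0.56 and 0.42 by edgeR. For mycn in photoreceptors over progenitors, leaving out 1 library gave -5.60 to -4.72. The counts of genes called depended on the tool and the libraries. For photoreceptors over progenitors edgeR called 718, DESeq2 1376, limma voom 1295 and the fit without AC/HC replicates 1 and 3, chosen after seeing the data, 1405. Leaving out 1 library gave 527 to 1127. For RGCs over progenitors the 398 calls became 927 by DESeq2, 755 by voom, 691 with only the 2 populations, 796 without both libraries and 254 to 657 without 1 library. For AC/HCs over progenitors the 1540 calls became 2497 by DESeq2, 2316 by voom and 600 with only the 2 populations. For photoreceptors over RGCs the 292 calls became 715 by DESeq2, 610 by voom, 764 with only the 2 populations, 619 without both libraries and 202 to 527 without 1 library. For photoreceptors over AC/HCs the 1205 calls became 2087 by DESeq2, 2141 by voom, 553 with only the 2 populations and 698 to 1275 without 1 library. For RGCs over AC/HCs the 114 calls became 704 by DESeq2, 434 by voom and 68 to 235 without 1 library. Ribosome biogenesis genes called lower in photoreceptors, 8, became 15 by DESeq2 and by voom, 21 with only the 2 populations, 19 without both libraries and 6 to 17 without 1 library. In RGCs the 6 became 3 with no filter, 13 by DESeq2, 11 by voom, 12 with only the 2 populations, 10 without both libraries and 3 to 10 without 1 library, and in AC/HCs the 15 became 6 with only the 2 populations. Growth and metabolism genes called lower in photoreceptors, 5, became 8 by DESeq2 and by voom, 9 with only the 2 populations, 9 without both libraries and 4 to 8 without 1 library. In RGCs the 6 became 3 with no filter, 10 by DESeq2, 12 by voom, 14 with only the 2 populations, 10 without both libraries and 3 to 10 without 1 library. The causes were not tested. The replicate numbers were not used as pairs, since only 2 of 30 pairs of libraries with the same number had correlated deviations over 0.1. The median was 0.028. Of the 30, however, 14 correlated best with their own number, among them every RGC replicate against progenitors. Missing a threshold of 0.1 in every pair therefore does not show that pairing was absent. With the replicate block the counts were 745, 408, 1266, 293, 1058 and 89 for the 6 comparisons in the order in which they are given here, and mycn in photoreceptors over progenitors was -5.05. SDs and SEs describe the spread between libraries. By counting error alone, 0 counts of mych in 2 libraries allow up to 3 in each. That bound takes counts as independent, which amplified reads are not.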
